A study of Mus musculus with 6 samples.

Results

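The genes of the basal transcription machinery were examined for acetylation of lysine 9 on histone H3 (H3K9ac) at their promoters in mouse intestinal epithelial cells. The members were the protein-coding genes named in at least 1 of 6 peak lists whose symbol starts with Polr1, Polr2, Polr3, Gtf2, Gtf3, Med and a digit, or Taf and a digit. They numbered 82, of 105 protein-coding genes with these prefixes in RefSeq and of 9700 protein-coding genes named in any list. The members were thus chosen by the deposited calls themselves, the presence of a peak tied to the gene in any list, and the 23 genes of the family that no list named are outside the set. The chromatin came from the distal intestine of C57BL/6 mice in 3 groups: conventionally housed, with a normal microbiota; colonized with Escherichia coli as the sole bacterium (monoassociated); and germ-free. Each group had 2 libraries, and strain, tissue and antibody (Millipore 06-942) were common to all of them. Age and sex, and whether a library came from 1 mouse or from pooled mice, are not given in the labels. The labels do not say whether replicate libraries came from different animals, so p-values measure only the spread between these libraries, which may be technical.

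RNA polymerase I makes the large ribosomal RNA, RNA polymerase II makes messenger RNA, and RNA polymerase III makes transfer RNA and other short RNAs; several small subunits are common to more than one of these enzymes. At a promoter of RNA polymerase II, TFIID (the TATA-binding protein with its associated factors, the TAFs) and the general factors TFIIA, TFIIB, TFIIE, TFIIF and TFIIH position the enzyme and open the DNA. Mediator, a large complex with head, middle, tail and kinase modules, carries signals from sequence-specific activators to the enzyme. H3K9ac lies on nucleosomes beside the start sites of active genes, and nearly every cell, the intestinal epithelium included, transcribes most of this machinery.

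The windows of 250 bases before to 50 after the RefSeq start site are shown for 4 genes on which the results turn: Polr2m, the member called in every library; Med13 and Polr2h, the members called in 5; and Med22, a Mediator head gene with calls in both germ-free libraries and none in the E. coli libraries. Sequences are from RefSeq (GRCm38.p6, the assembly behind mm10), read 5′ to 3′ on the strand of the gene, and capitals mark matches on either strand to the GC box GGGCGG, the box known as CCAAT, the letters ATGGCGG that YY1 prefers, the letters TGCGCA from the NRF1 site, and the E box CACGTG.
Polr2m, downstream start site (mm10 chr9:71484909-71485208, minus strand): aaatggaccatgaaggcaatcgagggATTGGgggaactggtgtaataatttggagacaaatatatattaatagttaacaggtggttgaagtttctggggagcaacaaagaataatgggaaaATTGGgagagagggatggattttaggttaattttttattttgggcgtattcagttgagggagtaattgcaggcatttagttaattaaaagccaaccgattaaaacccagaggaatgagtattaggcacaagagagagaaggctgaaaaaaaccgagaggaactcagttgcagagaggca
Polr2m, upstream start site (mm10 chr9:71485934-71486233, minus strand): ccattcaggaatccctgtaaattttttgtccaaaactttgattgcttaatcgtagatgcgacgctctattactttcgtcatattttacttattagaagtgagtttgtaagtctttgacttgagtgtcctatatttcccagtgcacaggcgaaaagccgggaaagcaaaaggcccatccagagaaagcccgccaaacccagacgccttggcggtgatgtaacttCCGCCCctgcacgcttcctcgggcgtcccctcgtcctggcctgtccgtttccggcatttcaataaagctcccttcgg
Med13 (mm10 chr11:86357547-86357846, minus strand): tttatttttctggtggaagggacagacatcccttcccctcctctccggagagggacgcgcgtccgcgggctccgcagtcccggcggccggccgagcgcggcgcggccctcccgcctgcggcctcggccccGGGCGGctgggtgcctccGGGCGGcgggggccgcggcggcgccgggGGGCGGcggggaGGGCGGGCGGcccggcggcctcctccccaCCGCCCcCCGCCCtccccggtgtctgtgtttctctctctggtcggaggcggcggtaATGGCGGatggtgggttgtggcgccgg
Polr2h (mm10 chr16:20717576-20717875, plus strand): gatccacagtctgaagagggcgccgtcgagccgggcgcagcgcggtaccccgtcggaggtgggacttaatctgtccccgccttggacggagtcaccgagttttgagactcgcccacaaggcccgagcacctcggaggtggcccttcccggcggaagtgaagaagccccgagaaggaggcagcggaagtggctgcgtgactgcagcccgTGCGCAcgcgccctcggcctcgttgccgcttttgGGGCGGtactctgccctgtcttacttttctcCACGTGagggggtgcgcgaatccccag
Med22 (mm10 chr2:26910593-26910892, minus strand): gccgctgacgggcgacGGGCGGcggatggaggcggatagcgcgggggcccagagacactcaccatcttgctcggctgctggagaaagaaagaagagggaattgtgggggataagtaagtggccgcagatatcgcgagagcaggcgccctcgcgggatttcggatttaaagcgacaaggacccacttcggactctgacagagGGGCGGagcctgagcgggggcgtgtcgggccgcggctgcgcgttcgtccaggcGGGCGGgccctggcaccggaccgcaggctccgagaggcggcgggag
The Med13 window had 7 matches to GGGCGG, overlapping matches counted separately, and a GC content of 78.3%. The window at the downstream Polr2m start site had 2 matches to CCAAT, none to GGGCGG and a GC content of 39.3%. No list had an interval over any base of the Polr2h or the Med22 window, whose called intervals lay farther from the start site. The Med22 calls were shared with Rpl7a, which runs the other way. The strongest in each list lay past the Rpl7a start site, so these calls cannot be given to Med22 alone.

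A member was counted as marked in a library where at least 1 interval listed under its name overlapped the region from 1 kb before to 1 kb after its start site (a promoter interval). The lists held 3117 and 15352 intervals for conventional replicates 1 and 2, 1988 and 870 for the E. coli replicates, and 4430 and 17094 for the germ-free replicates. The labels state 20 M reads for each library. The background pileup behind the fold values, a measure of relative depth, was 0.413 and 0.381 extended reads per base for the conventional replicates, 0.690 and 0.403 for the E. coli replicates, and 0.733 and 0.579 for the germ-free replicates. Replicates of the conventional and of the germ-free group therefore differed in list length far more than in this background, and 2 libraries stood apart: conventional replicate 2 and germ-free replicate 2. Of 10 epithelial marker genes such as Vil1, Cdx2 and Epcam, 9 and 10 were marked in the conventional libraries, 8 and 7 in the E. coli libraries, and 10 and 10 in the germ-free libraries. None of 8 immune and none of 8 stromal, endothelial or muscle markers was marked in any library.

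Promoter intervals of the machinery were frequent in the long lists and rare in the E. coli lists. Of the 82 members, 13 and 60 were marked in conventional replicates 1 and 2, 6 and 3 in E. coli replicates 1 and 2, and 22 and 74 in germ-free replicates 1 and 2. These counts were 15.9% and 73.2% of the members in the conventional libraries, 7.32% and 3.66% in the E. coli libraries, and 26.8% and 90.2% in the germ-free libraries. Among the 8098 protein-coding genes with a promoter interval in any library, which had to pass the same entry condition, 24.6% and 88.8% were marked in conventional, 11.4% and 5.05% in E. coli, and 29.7% and 80.2% in germ-free replicates 1 and 2. The members' share was above that background in germ-free replicate 2 and below it in the other 5 libraries. The 95% Wilson interval of the members' share, which covers counting error only, was 62.7% to 81.6% in conventional replicate 2. In germ-free replicate 2 it was 81.9% to 95%. It treats genes as independent and is no test of the members against the background. Of the 82, 18 had a promoter interval in germ-free replicate 2 alone and 6 in conventional replicate 2 alone. The shares in these lists therefore rest partly on calls that defined the set.

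**Figure D1:**
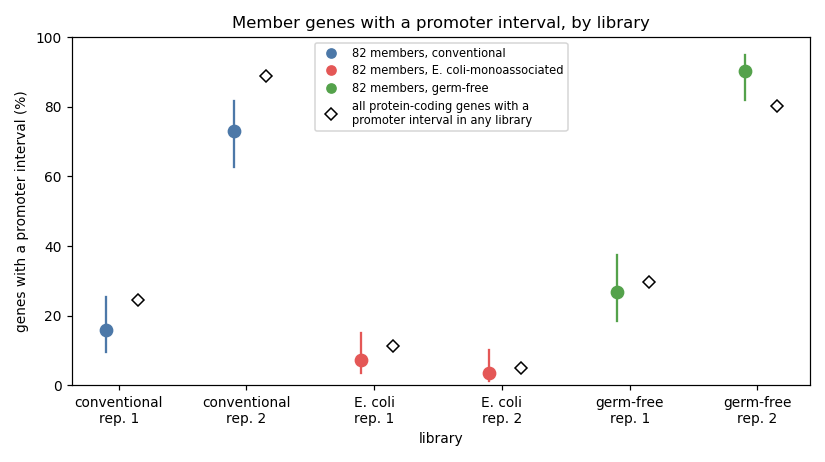
Percent of the 82 member genes with a promoter interval in each library (filled circles, bars are 95% Wilson intervals) and the same percent over the 8098 protein-coding genes with a promoter interval in any library (open diamonds). The members lie at 73.2% against 88.8% in conventional replicate 2 and at 90.2% against 80.2% in germ-free replicate 2.

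Conventional mice were compared with germ-free mice to ask how a full microbiota goes with the mark. The share of members marked was 44.5% ± 40.5 in conventional and 58.5% ± 44.8 in germ-free libraries (SD, n = 2 each), a difference of -14.0 percentage points that was smaller than the spread within either group (exact permutation test, two-sided, p = 0.667; adjusted over 3 pairs of groups, 0.667). No comparison of 2 libraries with 2 can give a p below 0.33. The direction turned when a library of the pair was left out: the difference was 14.6 points without conventional replicate 1 and 17.7 points without germ-free replicate 2. It was also 2.44 points when each list was cut to its 870 strongest intervals. All 13 members marked in both conventional libraries had a promoter interval in at least 1 germ-free library, 7 of them in both. Over all protein-coding genes, 3.25% of the 1968 marked in both conventional libraries lacked a germ-free call. Without conventional replicate 1, 6 of the 60 members in conventional replicate 2 had no germ-free call. Without germ-free replicate 2, 6 of the 13 in both conventional libraries had none. The matching shares over all genes were not computed. Of 20 members marked in both germ-free libraries, 2 (10%) had no promoter interval in either conventional library, against 2.47% of 2226 genes.

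Those 2 were Polr2j, a small subunit that pairs with Polr2c in the assembly platform of RNA polymerase II, and Med28, of the Mediator head. For Polr2j the strongest promoter interval had a fold enrichment of 5.77 and 5.7 in germ-free replicates 1 and 2, and of 5.92 in E. coli replicate 1. For Med28 it was 4.62 and 5.7 in the germ-free replicates, with no other call. Folds here are the authors' per-peak ratios of pileup to background, each relative to its own list, and are given to describe and order the peaks of that list alone. The count of 2 became 13, of 20 members in both germ-free libraries, without conventional replicate 2. It was 20, of 74 in germ-free replicate 2, without germ-free replicate 1. Without germ-free replicate 2 it was 4, of 22 in germ-free replicate 1. These counts change with the length of the lists kept, and the matching shares over all genes were not computed.

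In E. coli-monoassociated mice a single bacterial species was present. The share of members marked was 5.49% ± 2.59 in E. coli and 58.5% ± 44.8 in germ-free libraries (SD, n = 2 each), a difference of -53.0 points (exact permutation test, two-sided, p = 0.33, the smallest the design allows; adjusted 0.5). Both E. coli values lay below both germ-free values. With each list cut to 870 intervals the difference was 0.610 points. Of the 20 members marked in both germ-free libraries, 15 (75.0%) were marked in neither E. coli library, against 65.6% of 2226 genes. The members' 95% Wilson interval, 53.1% to 88.8%, treats genes as independent and is no test against that share. Without germ-free replicate 1 the count was 67, of the 74 members called in germ-free replicate 2. No matching share over all genes was computed. Neither of the 2 members marked in both E. coli libraries, Polr2h and Polr2m, lacked a germ-free call (background 0.00% of 248 genes).

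The 10 of these 15 with the best mean rank in their lists included 3 polymerase subunits. Polr1c, common to RNA polymerases I and III, had folds of 6.93 and 6.33 in germ-free replicates 1 and 2 and of 9.41 in conventional replicate 2. Polr2c, the platform partner of Polr2j, had 5.19 and 7.60 in the germ-free replicates, and Polr2l, common to all 3 polymerases, had 6.35 and 5.07. The promoter intervals of Polr1c were shared with Yipf3 and those of Polr2l with Tspan4. The Polr1c folds came from different stretches: the interval at 6.93 lay inside Polr1c, and those at 6.33 and 9.41 past the Yipf3 start site. Inside Polr1c the long lists held weaker intervals, at 5.07 (germ-free) and 4.35 (conventional). Of the Mediator head, Med22 had 5.77 and 10.1 in the germ-free replicates, and Med17 had 6.93 and 5.07. The Med22 intervals were shared with Rpl7a and lay past the Rpl7a start site, upstream of Med22. The middle module genes Med7 and Med10 had 4.62 and 5.7, and 5.19 and 6.33. Gtf2e1, a TFIIE subunit that helps bring in TFIIH, had 4.62 and 9.5 and shared its intervals with Rabl3. The interval at 4.62 lay past the Rabl3 start site and that at 9.5 reached across it, both upstream of Gtf2e1. Gtf2ird1, of the TFII-I family of DNA-binding factors, had 4.04 and 8.24. The other 5 were Gtf2f2, Med4, Med26, Taf7 and Med28. All 15 stood without a call in both E. coli lists, whose lowest fold was 4.14 and 4.28, so a weaker enrichment there would not be listed.

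Conventional and E. coli-monoassociated mice differ in the breadth of the microbiota. The share of members marked was 44.5% ± 40.5 in conventional and 5.49% ± 2.59 in E. coli libraries (SD, n = 2 each), a difference of 39.0 points (exact permutation test, two-sided, p = 0.33; adjusted 0.5), and both conventional values lay above both E. coli values. The difference was 10.4 points without conventional replicate 2 and 67.7 points without conventional replicate 1, and it was 1.83 points with each list cut to 870 intervals. Of the 13 members marked in both conventional libraries, 10 (76.9%, 95% Wilson interval 49.7% to 91.8%) were marked in neither E. coli library, against 61.9% of 1968 genes. Without conventional replicate 1 the count was 54, of the 60 members called in conventional replicate 2, with no matching share over all genes computed. The 10 came from TFIIA, TFIIB, TFIIE, TFIID, the middle and tail of Mediator, and RNA polymerase III. None encoded a subunit of RNA polymerase II, TFIIF or TFIIH. The TFIIA subunit Gtf2a2, which steadies the TATA-binding protein on DNA, had folds of 4.95 and 5.79 in conventional replicates 1 and 2. Gtf2b, which is TFIIB and bridges TFIID and the polymerase, had 4.95 and 4.35, and Gtf2e1 had 5.66 and 5.79. These Gtf2e1 intervals were shared with Rabl3 and lay past the Rabl3 start site, upstream of Gtf2e1. Taf12, a histone-fold subunit of TFIID, had 4.25 and 12.3, and Taf7, an inhibitor of the acetyltransferase activity of Taf1, had 4.95 and 5.07. Of Mediator, Med15, the tail subunit that many activators bind, had 6.37 and 6.52, Med7 had 6.37 and 7.97, Med10 had 4.25 and 11.6, and Med4 had 4.95 and 6.52. Polr3c, specific to RNA polymerase III, had 5.66 and 7.97, in an interval shared with Rnf115. The 3 members outside this pattern were Polr2m, called in both E. coli lists, Gtf2a1, in E. coli replicate 1, and Med13, in E. coli replicate 2. Neither member marked in both E. coli libraries lacked a conventional call (background 0.00% of 248 genes). The 2 comparisons with E. coli share the E. coli libraries, and Med7, Med10, Med4, Gtf2e1 and Taf7 were in both sets of members.

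**Figure D2:**
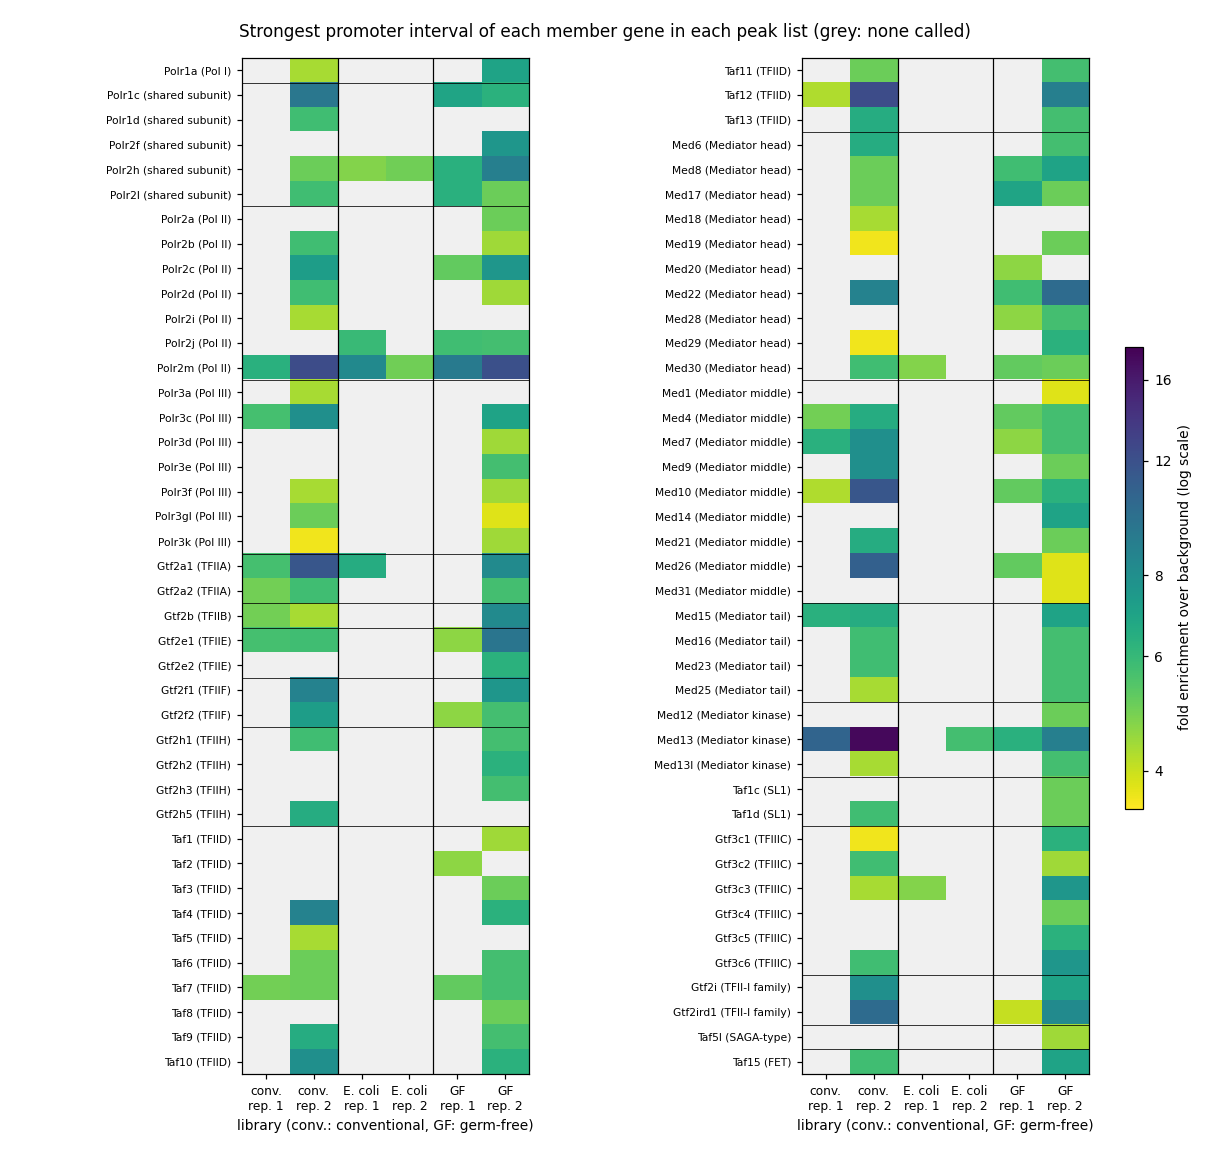
Fold enrichment (authors' value, log colour scale) of the strongest promoter interval of each of the 82 members in each library, in columns from conventional to E. coli to germ-free, with the complex in brackets; grey means that no promoter interval was called. The E. coli columns hold 6 and 3 coloured cells, and Polr2m is the row with a call in every column.

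Because lists differed so much in length, the members were also taken as a share of the protein-coding genes marked in each library, a measure added after the data had been seen. The members were 0.654% and 0.834% of 1989 and 7194 marked genes in the conventional libraries, 0.651% and 0.733% of 921 and 409 in the E. coli libraries, and 0.914% and 1.14% of 2408 and 6492 in the germ-free libraries. At this setting both germ-free values lay above the other 4. The mean was 0.744% ± 0.128 in conventional and 1.03% ± 0.16 in germ-free libraries (SD, n = 2 each), a difference of -0.283 points (exact permutation test, two-sided, p = 0.33, adjusted over 3 pairs 0.5). It was 0.692% ± 0.058 in E. coli libraries, a difference of -0.334 points from germ-free libraries (exact permutation p = 0.33, adjusted 0.5). Conventional and E. coli libraries differed by 0.0513 points (exact permutation p = 0.667, adjusted 0.667). With each list cut to 870 intervals the order changed, on 2 to 6 marked members in a library. The differences became 0.250 points for conventional minus germ-free and 0.273 points for E. coli minus germ-free. At a -log10 q of 5 or more the germ-free values no longer stood apart. Germ-free replicate 1 was at 0.683% (6 members), below conventional replicate 2 at 0.693% (25) and E. coli replicate 1 at 0.816% (2).

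The long lists carried most of the members. Of the 82, 53 (64.6%) had a promoter interval only in conventional replicate 2, germ-free replicate 2 or both, against 58.7% of the 8098 genes. Of the 80 members in either long list, 54 were in both. A further 6 (7.5%) were in conventional replicate 2 and not in germ-free replicate 2, where the share over 8033 genes was 19.2%, and 20 (25%) were in germ-free replicate 2 and not in conventional replicate 2, where it was 10.4%. Over all genes the calls found in 1 of the lists were more numerous in the conventional list, and over the members in the germ-free list. This sets 1 library against 1, with no replicate check. The 6 in the conventional list were Polr1d, Polr2i, Polr3a, Gtf2h5, Taf5 and Med18. The 20 in the germ-free list included Polr2a, the catalytic subunit of RNA polymerase II with the C-terminal repeat, at a fold of 5.07, and Taf1, the scaffold of TFIID, at 4.43. They also included 3 well-studied Mediator subunits: Med14, the backbone that joins the modules, at 6.97, Med1, the contact for nuclear receptors, at 3.80, and Med12, the activator of the Mediator kinase, at 5.07. The median strongest fold of the members was 5.79 in conventional replicate 2 and 5.7 in germ-free replicate 2, below the 6.52 and 6.33 of all marked genes in these lists. The members therefore sat nearer to the calling limit than the typical marked gene: their median rank by p-value was the percentile 61.1 of the list in conventional replicate 2 and 59.1 in germ-free replicate 2, against 73.9 and 72.8 for all marked genes. In the libraries with pileups the weakest member interval rested on 4 to 7 reads at its summit. In bulk chromatin, fewer cells with the mark and less mark per cell cannot be told apart.

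The polymerase subunits showed this unevenness gene by gene. Of 28 polymerase genes with these prefixes 20 were members, and 2 and 15 were marked in conventional, 3 and 2 in E. coli, and 6 and 17 in germ-free libraries. Over the 8098 genes with a promoter interval, the marked shares were 24.6% and 88.8% in conventional and 11.4% and 5.05% in E. coli libraries. In germ-free libraries they were 29.7% and 80.2%. The counts by complex below are to be read beside these shares. Polr2m encodes a protein that binds RNA polymerase II and makes it depend on Mediator. Its strongest promoter interval had folds of 6.37 and 12.3 in the conventional libraries, 8.29 and 4.99 in the E. coli libraries, and 9.23 and 12 in the germ-free libraries. It was the only member called in all 6 libraries, 1.22% of the members against 2.25% of the 9700 named genes. RefSeq gives Polr2m start sites 1025 bp apart, shown in the windows above, and apart from a second interval past the downstream site in germ-free replicate 2 its intervals lay between these sites or reached across one or both of them. In conventional replicate 2 the interval spanned chr9:71484951-71486020 and in germ-free replicate 2 chr9:71484962-71485994, while in E. coli replicates 1 and 2 it spanned chr9:71485615-71485841 and chr9:71485200-71485420, which do not overlap each other.

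Polr2h, a small subunit common to all 3 polymerases, had folds of 5.07 in conventional replicate 2, 4.73 and 4.99 in the E. coli replicates, and 6.35 and 8.87 in the germ-free replicates, with no call in conventional replicate 1. Each of these intervals lay upstream, between the Polr2h start site and that of the chloride channel gene Clcn2, which runs the other way from 1190 bp off, so the calls cannot be given to either gene alone. Polr2j was called in E. coli replicate 1 and both germ-free libraries. Polr2c and Polr2l were called in conventional replicate 2 and both germ-free libraries. Polr2b, the second largest subunit, and Polr2d, of the stalk, were called in both long lists alone, each with folds of 5.79 in conventional and 4.43 in germ-free replicate 2. Polr2i was called in conventional replicate 2 alone, at 4.35, and Polr2a and Polr2f in germ-free replicate 2 alone, at 5.07 and 7.6. The intervals of Polr2b, Polr2i and Polr2f were tied to a second gene as well. RNA polymerase III had 7 of its 10 own genes in the lists, and of these 1 and 5 were marked in conventional, 0 and 0 in E. coli, and 0 and 6 in germ-free libraries. Polr3c supplied the call in conventional replicate 1, in an interval shared with Rnf115 that lay past the Rnf115 start site, upstream of Polr3c. Polr1a, the catalytic subunit of RNA polymerase I, was called in both long lists alone, with folds of 4.35 in conventional and 6.97 in germ-free chromatin, in an interval shared with Ptcd3.

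Among the general factors, both TFIIA genes in the lists, Gtf2a1 and Gtf2a2, were marked in both conventional libraries. Gtf2a1 had folds of 5.66 and 11.6 in the conventional libraries, 6.51 in E. coli replicate 1 and 8.24 in germ-free replicate 2. It had no call in E. coli replicate 2 or in germ-free replicate 1. Gtf2f1 and Gtf2f2, of TFIIF, were marked in both long lists, and Gtf2f2 also in germ-free replicate 1. No TFIIH gene was marked outside the long lists. TFIID had 13 of 17 genes in the lists, with 2 and 9 marked in conventional, 0 and 0 in E. coli, and 2 and 11 in germ-free libraries. These counts, too, are to be read beside the shares over the 8098 genes given for the polymerases. Taf7 was the TFIID gene called in both short lists of these groups, conventional replicate 1 and germ-free replicate 1. Taf2, which contacts the initiator, was called in germ-free replicate 1 alone, at a fold of 4.62. TFIIIC, which binds the internal promoters of transfer RNA genes, had its 6 listed subunit genes called in germ-free replicate 2 and 4 of them in conventional replicate 2. Gtf3c3 was the one also called in an E. coli list, replicate 1, at a fold of 4.73.

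Mediator had 26 of 30 genes in the lists, with 5 and 20 marked in conventional, 1 and 1 in E. coli, and 11 and 24 in germ-free libraries. For this and its modules, the shares over the 8098 genes were 24.6% and 88.8% in conventional and 11.4% and 5.05% in E. coli libraries. They were 29.7% and 80.2% in germ-free libraries. The head module had 0 and 8 of its 10 members marked in conventional, 1 and 0 in E. coli, and 6 and 8 in germ-free libraries. The 6 in germ-free replicate 1 were Med8, Med17, Med20, Med22, Med28 and Med30. There the intervals of Med8, Med20 and Med22 were shared with a second gene. The middle module had 3 and 6 of 9 marked in conventional, 0 and 0 in E. coli, and 4 and 9 in germ-free libraries. The tail had 1 and 4 of 4 marked in conventional, 0 and 0 in E. coli, and 0 and 4 in germ-free libraries, with Med15 the call in conventional replicate 1. Med13, the subunit that links the kinase module to the rest of Mediator, held the strongest member interval of 3 lists, with folds of 10.6 and 17.4 in the conventional libraries and 5.7 in E. coli replicate 2. In the germ-free libraries its folds were 6.35 and 8.87. E. coli replicate 1 had no promoter interval at Med13 but an interval in an intron. The only promoter interval of E. coli replicate 1 in Mediator was at Med30, of the head, with a fold of 4.73.

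**Figure D3:**
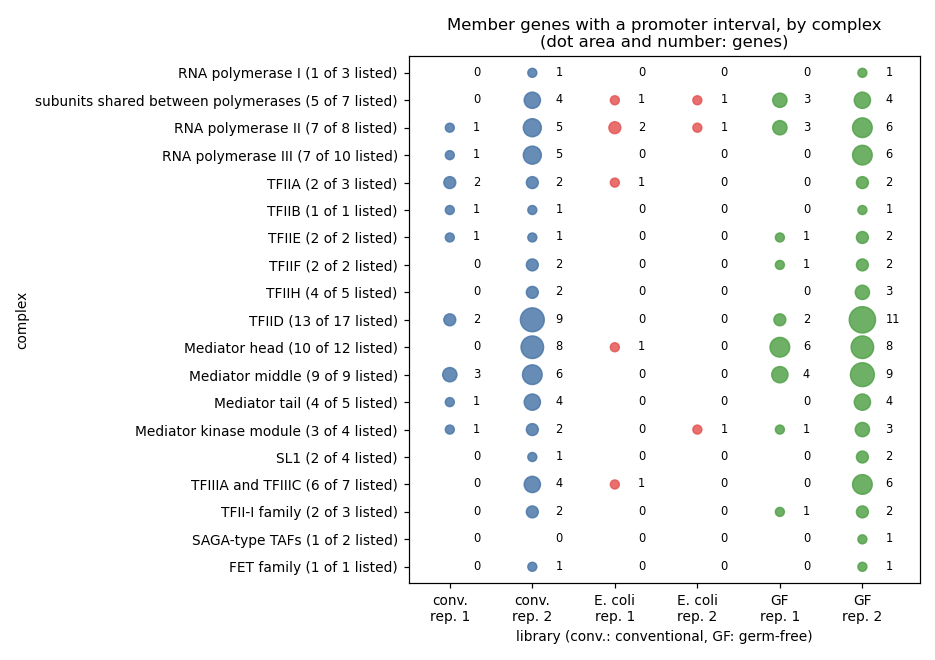
Number of member genes with a promoter interval in each library (dot area and printed number), by complex, with the listed genes of each complex out of its genes in RefSeq. Mediator head holds 0 genes in conventional replicate 1 and 6 in germ-free replicate 1, and RNA polymerase III holds 0 genes in 3 of the 4 short lists. TFIIA goes the other way from the head, with 2 and 0 genes, as do TFIIB, RNA polymerase III and the Mediator tail, with 1 and 0 each. Over the 8098 genes with a promoter interval, 24.6% and 29.7% were marked in conventional replicate 1 and germ-free replicate 1.

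Where several libraries called a member, they mostly called the same stretch of chromatin. All 13 members marked in both conventional libraries had overlapping intervals there, as did 96.2% of 1968 genes. Of the 20 marked in both germ-free libraries 16 (80.0%) overlapped, against 91.3% of 2226 genes; the exceptions were Polr2j, Med17, Gtf2ird1 and Med26. Of the 54 in both long lists, 48 (88.9%) overlapped, against 90.9% of 5653 genes. Between E. coli replicate 1 and germ-free replicate 2, 5 of 6 shared members (83.3%) overlapped, against 92.2% of 890 genes, and the exception was again Polr2j. Its interval in E. coli replicate 1 (chr5:136116974-136117119) overlapped that in germ-free replicate 1 (chr5:136117103-136117249), and the interval in germ-free replicate 2 (chr5:136117294-136117440) overlapped neither.

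**Figure D4:**
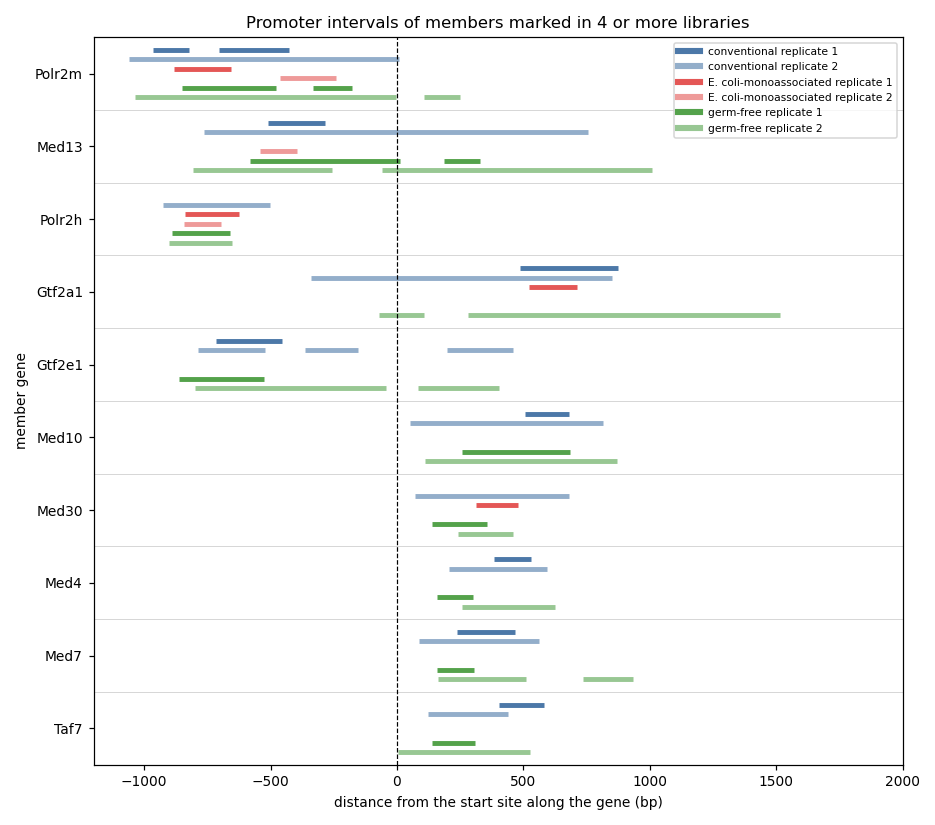
Extent of each promoter interval (horizontal bars, coloured by group, lighter for replicate 2) of the 10 members marked in 4 or more libraries, by distance in bp from the start site along the gene (dashed line; for Polr2m the downstream of its start sites). Polr2h is marked upstream alone, and Med10, Med30, Med4, Med7 and Taf7 downstream alone.

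Most intervals lay past the start site, over the first nucleosomes of the gene. Counting promoter intervals tied to a single gene, 75.0% and 93.3% of those of the members had their middle downstream in the conventional libraries, against 87.2% and 78.3% over all protein-coding genes. In the germ-free libraries these shares were 76.5% and 75.4% of the members' intervals, against 82.4% and 74.0%. The E. coli libraries had 5 and 2 such member intervals, too few for a share. In conventional replicate 2, 71.8% of 39 members were covered 400 bp downstream of the start site and 20.5% at the site itself, and in germ-free replicate 2 these values were 65.3% and 16.3% of 49 members. None of the 39 members in conventional replicate 2 had separate intervals with middles on either side of the start site, against 20.8% of 5663 genes. In germ-free replicate 2, 10 of 49 (20.4%) did, against 26.3% of 5066 genes. A single interval across the site does not count here, such as that of Med13 in conventional replicate 2 (-765 to 755 bp). Intervals covered the site itself at 8 of the 39 members and at 8 of the 49. Of the members with a RefSeq window, 37 of 54 (68.5%) marked in conventional replicate 2 and 49 of 67 (73.1%) marked in germ-free replicate 2 had no interval over the 300-base window at the start site, against 63.2% and 68.0% of all genes.

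**Figure D5:**
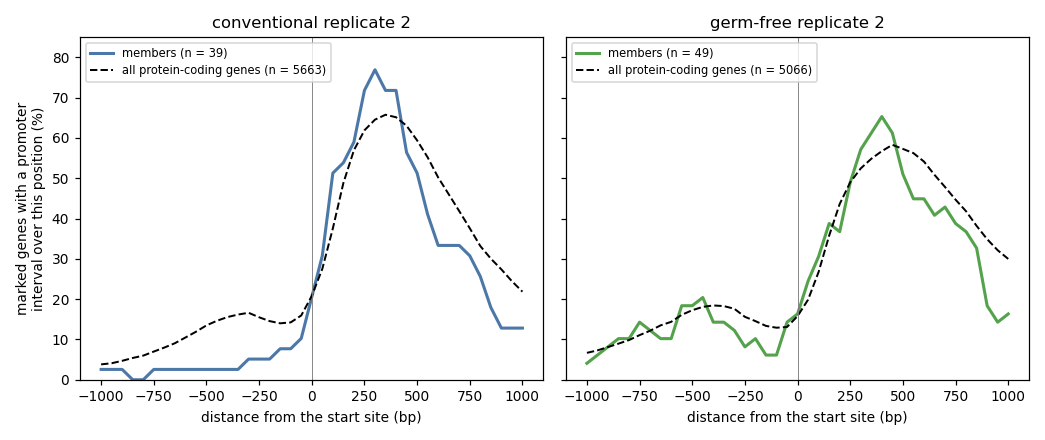
Percent of marked genes with a promoter interval over each position, by distance from the start site in bp, in the 2 long lists; solid lines are members and dashed lines all protein-coding genes, each restricted to intervals tied to a single gene. Coverage of the members peaks downstream, with 71.8% in conventional replicate 2 and 65.3% in germ-free replicate 2 at 400 bp.

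Many members shared their promoter with a neighbouring gene. Of the 82, 28 (34.1%) had only promoter intervals that the authors tied to a second gene as well, against 19.5% of the 8098 genes. Counting members with any shared promoter interval (30), 26 pairs had both genes in the RefSeq windows, and 25 of these were divergent, read outward on opposite strands, with a median distance between start sites of 172 bp (range 17 to 1190 bp). The closest were Gtf2h3, of TFIIH, with Eif2b1, at 17 bp, and Polr1c with Yipf3, at 35 bp. Med29 paired with Paf1, of the elongation complex that travels with RNA polymerase II, at 306 bp. By RefSeq position alone, 26 of 73 members with a window (35.6%) had a divergent neighbour within 1 kb, against 2 of 18 family genes that no list named (11.1%), 23.9% of the protein-coding genes with a promoter interval and 13.2% of all protein-coding genes. A shared interval carries both names, so a divergent neighbour can itself bring a gene into the lists. The gap between members and unlisted family genes is therefore partly set by how the members were chosen. At divergent promoters the acetylation of the pair cannot be assigned to one gene. Leaving out members with a shared interval left 52, of which 21.2% and 73.1% were marked in conventional, 9.62% and 3.85% in E. coli, and 28.8% and 92.3% in germ-free libraries.

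The sequence of the members' start sites was that of CpG-rich promoters. Over 73 matched windows the median GC content was 60.3% and the ratio of observed to expected CpG 0.849, against 62.3% and 0.814 over 6566 genes with a promoter interval and 56.3% and 0.567 over 21263 windows of all protein-coding genes. Letters were searched on both strands, and none of the motifs contains another. GGGCGG, the GC box, was in 64.4% of the members' windows, against 69.3% of those of marked genes and 46.2% of all. CCGGAAG, the letters that ETS factors prefer, was in 32.9%, against 23% and 11.6%. CACGTG, an E box, was in 17.8%, against 10.3% and 7.84%, TGCGCA in 20.5%, against 15.7% and 9.74%, and ATGGCGG in 12.3%, against 9.98% and 5.25%. TATAAA was in 15.1% (11 windows), against 6.20% of marked genes and 12.6% of all. CCAAT was in 37.0%, against 37.2% and 38.2%, and TGACGTC in 6.85%, against 6.44% and 3.84%. A match describes letters in this window and is not a bound site.

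Members near the edge of the promoter region were few. The promoter intervals closest to its edge lay 977 bp from the start site at Taf5, 958 bp at Taf12 and 936 bp at Taf9, and the closest that missed it lay 1030 bp off at Med13l, 1143 bp at Med14 and 1186 bp at Taf15. All 82 members had a promoter interval in at least 1 library, although 16.5% of the 9700 named genes had none. The members were marked in 1 library (26 genes), 2 (30), 3 (16), 4 (7), 5 (2) or 6 (1). The shares of the 9700 genes for these numbers of libraries were 22.3%, 29.9%, 16.1%, 8.64%, 4.37% and 2.25%. The 23 family genes that no list named included Polr1b, Polr2e and Polr2g, which encode polymerase subunits, and Med11, Med12l, Med24 and Med27 of Mediator. Some of the rest, such as Gtf2a1l, Taf4b and Taf7l, are paralogues with more restricted expression in mice.

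Other genes of the pathway that lack these prefixes were read by the same promoter calls. They were picked by name and did not have to be in any list, so their counts cannot be set directly beside those of the members. Of 59, 53 had a promoter interval in some library: 12 and 47 in conventional, 6 and 2 in E. coli, and 14 and 44 in germ-free libraries. All 27 pausing and elongation genes were among them, with 9 and 26 marked in conventional, 4 and 1 in E. coli, and 11 and 24 in germ-free libraries. Of all 21900 protein-coding genes in RefSeq, 8098 had a promoter interval in some library. Of these 8098, 24.6% and 88.8% were marked in conventional, 11.4% and 5.05% in E. coli, and 29.7% and 80.2% in germ-free libraries. Ccnt2, a cyclin of the kinase that releases paused polymerase, had folds of 4.25 and 7.24 in the conventional libraries, 4.99 in E. coli replicate 2, and 4.04 and 7.60 in the germ-free libraries. Aff1, of the super elongation complex, had 4.95 and 7.97 in the conventional libraries, 6.51 in E. coli replicate 1, and 5.19 and 8.87 in the germ-free libraries. Ssu72, a phosphatase of the C-terminal repeat of RNA polymerase II, was the gene of these 59 called in all 6 libraries, with folds of 6.37 and 14.5 in conventional, 4.73 and 6.41 in E. coli, and 6.93 and 12 in germ-free libraries. None of the 13 genes of these lists marked in both germ-free libraries lacked a conventional call, and 7 of them were in neither E. coli list. Over all 2226 genes marked in both germ-free libraries these shares were 2.47% and 65.6%.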

How the data were processed

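H3K9ac ChIP-seq of 6 libraries was used, grouped by the labels. Per the labels, the ThruPLEX kit and single-end 50 bp sequencing were used. The submitters' processing notes name Bowtie 1.2.0, MACS2 2.1.1.20160309 and mm10; peak calling options and any input control are not given in the labels. The deposited files were MACS2 peak lists, 1 for each library, with the pileup (signal, or coverage, at the summit), the -log10 p-value, the -log10 q-value and the fold enrichment (a ratio), per the file headers. The deposited list of germ-free replicate 2 held no pileup, and its values were moved against its header; its columns were identified from the values. In 3 deposited lists (conventional replicate 1 and both E. coli lists) mitochondrial lines lacked cells, so the p, q and fold columns were recorded as other units; these lines carry no gene.

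Lines repeating an interval were merged, and names were matched to RefSeq GRCm38.p6 (10568 of 10621). A promoter interval overlapped 1 kb on either side of the start site given on its line. Peaks were called per library, so calls were compared between libraries, never scores. Background pileup was computed from fold as pileup plus 1 over background plus 1, and in germ-free replicate 2 from the steps between fold values. Shares were compared by exact permutation of libraries with Benjamini-Hochberg adjustment over 3 pairs of groups; the counting of patterns was tested on simulated data. Wilson intervals (95%) cover counting error only. Named with values were members in all 6 libraries, for each pair of groups the 10 best-ranked members in both libraries of one and neither of the other, and every Polr2 member by its calls; other genes named were chosen after their values were seen, and the values of 1 gene the rule names are not reported here. Members and lists were chosen with earlier results of these data known. Alternatives were a -log10 q of 5 or more, lists of equal length, a 2.5 kb region, an overlap of 500 bp, gene position alone, shared promoters left out, each library left out and a replicate block. The software was Python 3.11.15 with SciPy 1.17.1, NumPy 2.4.6, pandas 2.3.3 and, for figures, matplotlib 3.10.9.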

Additional observations from a re-analysis of the deposited data

How the results depend on the processing

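Of 135 alternative values, 102 kept their direction (differences, whatever their size) or stayed within 1.5 times the main count (counts), 25 moved and 8 reversed. Some of the 102 could not have come out otherwise. The replicate block leaves every difference unchanged, and gene position alone reuses the start sites of intervals tied to a single gene. With each list cut to its 870 strongest intervals, the share of members marked differed by 2.44 points for conventional minus germ-free and by 0.610 points for E. coli minus germ-free, both reversed, and the members as a percent of marked genes differed by 0.250 (conventional minus germ-free), 0.273 (E. coli minus germ-free) and -0.0224 (conventional minus E. coli), all reversed. The same lists left 0 members marked in the germ-free but not the E. coli group (both libraries against neither, as in the counts that follow), 0 in conventional not E. coli, 0 in germ-free not conventional, and 1 in conventional not germ-free; no member was in all 6. Conventional minus E. coli kept its direction at 1.83 points. At a -log10 q of 5 or more the counts were 3 (germ-free, not E. coli), 3 (conventional, not E. coli), 1 (germ-free, not conventional) and 1 (conventional, not germ-free), with 0 in all 6. With an overlap of 500 bp or more they were 1, 0 and 0 for germ-free not E. coli, conventional not E. coli and germ-free not conventional, with 0 in all 6. Differences in the share of members kept their direction but shrank at these 2 settings: conventional minus germ-free was -4.27 points at the stricter q and -4.88 points with the larger overlap, E. coli minus germ-free -20.7 and -11.6, and conventional minus E. coli 16.5 and 6.71. As a percent of marked genes, in the same order, they were -0.453, -0.655 and 0.202 with the larger overlap, wider than the main values. These rest on few members: 0 and 11 marked in conventional, 0 and 0 in E. coli, and 1 and 18 in germ-free replicates 1 and 2. At the stricter q they were -0.203, -0.370 and 0.167. The cause of these moves was not tested, beyond that shorter lists hold fewer calls. A 2.5 kb region and gene position alone gave the same members in each library; gene position alone was not run for the percent of marked genes.

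Leaving out 1 library at a time gave conventional minus germ-free -45.7 to 17.7 points, reversed at 14.6 without conventional replicate 1 and at 17.7 without germ-free replicate 2, E. coli minus germ-free -84.8 to -21.3 and conventional minus E. coli 10.4 to 67.7. As a percent of marked genes the ranges were -0.396 to -0.170, -0.447 to -0.221 and -0.0389 to 0.142, the last of these reversed without conventional replicate 2. Counts ranged over 16 to 67 (germ-free, not E. coli), 10 to 54 (conventional, not E. coli), 2 to 20 (germ-free, not conventional), 0 to 6 (conventional, not germ-free), 0 to 1 (E. coli, not conventional) and 0 to 0 (E. coli, not germ-free), with 1 to 2 members in all 6. For the counts under alternative settings the matching shares over all genes were not computed. The replicate differences of single genes were weakly correlated between groups (0.0948, 0.0310 and 0.0797 over 8098 genes). This correlation cannot see a shift common to a whole library. Whether same-numbered libraries were handled together is not given in the labels and was not tested. With the replicate block the differences were by construction the same, -14.0, -53.0 and 39.0 points and -0.283, -0.334 and 0.0513 percent of marked genes. Each had an exact sign-flip p = 0.5, the smallest that sign flips of 2 pairs allow. List length limits every count: a promoter without a call may carry weaker acetylation than the lowest listed fold (4.25 and 3.62 in the conventional, 4.14 and 4.28 in the E. coli, 4.04 and 3.80 in the germ-free lists).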
